A study of Caenorhabditis elegans with 7 samples.

Results

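The subject is the small RNA that crosses splice junctions in wildtype (strain N2) Caenorhabditis elegans embryos. These are 2 of the 7 libraries of a study of small RNAs and pre-mRNA splicing, chosen by their labels as wildtype, 1 from experiment 2 and 1 from experiment 1. The worms were grown at 20 °C, embryos were released from adults with alkaline hypochlorite, RNA was extracted with Trizol, and the small RNA fraction was cut from a denaturing gel before Illumina sequencing. The test of the experiments also used the 2 libraries of rnp-2(mg582), a mutant of a gene for a protein of the spliceosome, with 1 library in each experiment. Nothing in the labels says whether the libraries came from separate cultures, so the SDs and p-values may hold no spread between cultures. Each SD was taken over 1 library of experiment 2 and 1 of experiment 1, so it includes the difference between the experiments.

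As background, C. elegans makes endogenous small interfering RNAs with RNA-dependent RNA polymerases that copy messenger RNAs, so the small RNAs are antisense to their templates. ERGO-1, an Argonaute protein that acts in oogenesis and embryos, binds primary small RNAs against recently duplicated genes and pseudogenes, and secondary small RNAs follow. A small RNA that spans 2 joined exons was copied from a spliced template, and one that spans an exon and its intron from a template in which that intron was still present.

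The table gives read counts at each end of an intron, with an IEJ and an EEJ value per library. Neither term is spelled out in the labels. EEJ is taken here to count reads over 2 joined exons (spliced) and IEJ reads over an exon and its intron (unspliced). Whole reads were recovered from the CPM values. The CPM values put the library totals at 88364327 reads in experiment 2 and 20830155 reads in experiment 1. At the listed junctions 474407 reads in experiment 2 and 296891 in experiment 1 were spliced, and 36891 and 23360, in the same order, were unspliced at either end of an intron. One read was worth 0.0113 CPM in experiment 2 and 0.0480 CPM in experiment 1, and the level that a count of 0 allows (3 reads) was 0.0340 CPM in experiment 2 and 0.144 CPM in experiment 1. The listed junctions numbered 7288 in 3717 genes. Only junctions that reached about 0.505 CPM in some library are listed, and 6217 of 14533 lines were below 0.5 CPM in both wildtype libraries.

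The bases around both ends of the introns that led either kind of read are printed as the deposited table gives them, in the direction of the gene. Each donor holds 5 exon and 10 intron bases, and each acceptor 10 intron and 5 exon bases. Capitals mark the first or last pair of intron bases, which are GT and AG in most introns. The first 4 introns carried the largest mean share of spliced reads.
Y110A2AL.1 intron 1 donor: ttttcGTgagttaac
Y110A2AL.1 intron 1 acceptor: attttttcAGgagta
CD4.8 intron 2 donor: acattGTgaggagag
CD4.8 intron 2 acceptor: tttgttgcAGgatca
E01G4.5 intron 5 donor: tttgtGTaagtgtaa
E01G4.5 intron 5 acceptor: catcgttcAGgtgcc
hmg-11 intron 1 donor: atcaaGTacgttttt
hmg-11 intron 1 acceptor: tctttttcAGgcgcc

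The next 4 carried the largest mean share of unspliced reads over the libraries, and none of them is an intron of the annotation used here (WBcel235).
fbxc-43 donor: tgaaaGTagttcata
fbxc-43 acceptor: gttcctccAGaactg
C44C10.5 donor: ccaaaGTacgattga
C44C10.5 acceptor: atctctacAGattgt
Y46H3C.6 donor: tgaagGTgttctgga
Y46H3C.6 acceptor: ccacagatCTtccgg
C09G1.3 donor: agtcgGTgagctgat
C09G1.3 acceptor: ctgttttcAGaatgg

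The intron of anmt-1 stands for the 16 introns in which 20 to 80% of junction reads were unspliced.
anmt-1 intron 3 donor: tagatGTaagttttg
anmt-1 intron 3 acceptor: ttaatttcAGgtgaa

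Spliced reads led the junction reads of wildtype embryos. Unspliced reads, taken as the mean over the listed ends of an intron, were 4.76% of junction reads in experiment 2 (95% exact binomial interval 4.71 to 4.82%) and 4.92% in experiment 1 (4.846 to 4.998%). Their mean was 4.84% ± 0.111 (SD, n = 2). The intervals cover counting error only, since reads without molecular identifiers are not independent molecules. The difference between the experiments was small beside the difference in how much of the library the junctions took. All listed junction reads were 0.579% of the experiment 2 library and 1.54% of the experiment 1 library, a ratio of 2.66 for experiment 1 over experiment 2.

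The unspliced reads lay in fewer genes, and the spliced reads were spread more widely. The 10 leading genes held 34.6% of unspliced reads in experiment 2 and 32.9% in experiment 1 (33.7% ± 1.21, SD, n = 2). For spliced reads the 10 leading genes held 17.4% in experiment 2 and 15.3% in experiment 1 (16.3% ± 1.45, SD, n = 2). It took 25 genes in each library to reach 50% of unspliced reads, and 103 genes in experiment 2 and 107 in experiment 1 to reach 50% of spliced reads. For 80% of spliced reads it took 563 genes in experiment 2 and 564 in experiment 1. Spliced reads were seen in 3571 genes in experiment 2 and 3545 in experiment 1, and unspliced reads in 1424 and 1124 genes, in the same order. With the experiment 2 library thinned to the junction reads of the other, 3534 genes had spliced and 1220 had unspliced reads in it.

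**Figure D1:**
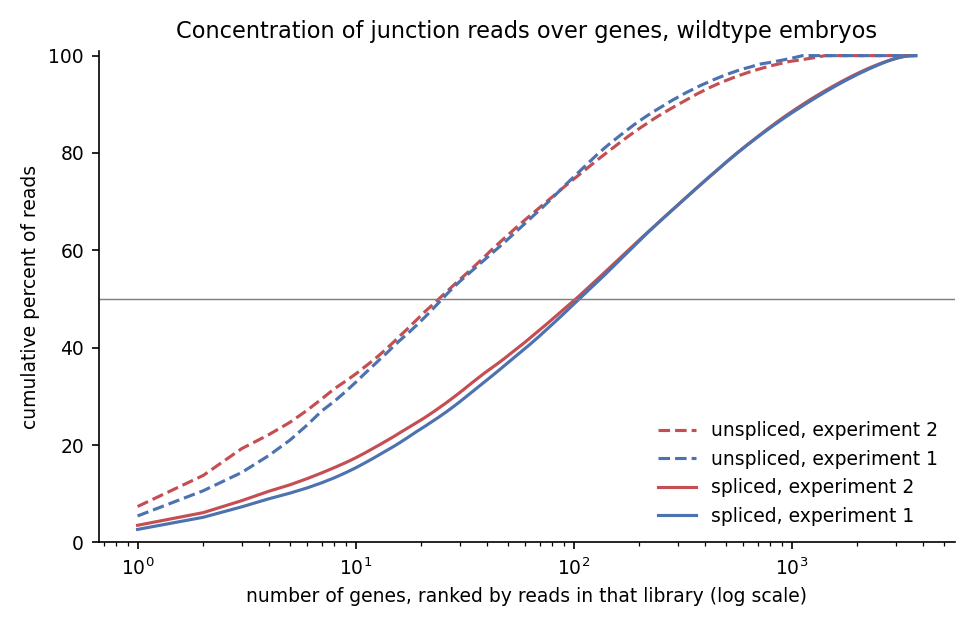
Cumulative percent of junction reads (y axis) against the number of genes ranked by reads in that library (x axis, log scale), for unspliced reads (dashed) and spliced reads (solid) of the 2 wildtype libraries. The dashed lines cross the grey line at 50% at 25 genes in each library, and the solid lines at 103 genes in experiment 2 and 107 genes in experiment 1.

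The genes that led the spliced reads were largely not those that led the unspliced reads. The 2 libraries shared 9 of their 10 leading genes for spliced reads and 9 of 10 for unspliced reads. Within a library, the 10 leading genes for spliced and for unspliced reads shared 1 gene, Y71A12B.10. Among the 100 leading genes of each kind, 22 were shared in experiment 2 and 25 in experiment 1. Over 3690 genes with any wildtype junction read, spliced and unspliced reads of the same gene had a Pearson r of 0.283 on log2(reads + 0.5) in experiment 2 and 0.269 in experiment 1. These points share a library and the length and abundance of the template, and genes are not independent replicates.

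E01G4.5, an established ERGO-1 target, held the most spliced reads in experiment 2 and on the mean of the libraries, and Y110A2AL.1 held the most in experiment 1. It had 16695 spliced reads in experiment 2 and 7403 in experiment 1, which is 3.52% and 2.49% of all spliced reads (3.01% ± 0.725, SD, n = 2). Its unspliced reads numbered 186 in experiment 2 and 97 in experiment 1, so that 0.554% and 0.651% of its junction reads were unspliced. The reads lay mainly at introns 5 and 2 of the 5 listed. Intron 5 (chrII:13473785-13473829, + strand, WBcel235) had 6886 spliced reads in experiment 2 and 2942 in experiment 1, while intron 1 had 154 and 152. Intron 4 of the same gene (chrII:13473528-13473571) was the one with more unspliced reads, 117 in experiment 2 and 64 in experiment 1 over both ends, which made 6.98% and 4.85% of its junction reads unspliced.

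Y110A2AL.1, on the same chromosome, was second on the mean, with 12331 spliced reads in experiment 2 and 7932 in experiment 1, where it stood first (2.64% ± 0.0512 of spliced reads, SD, n = 2). Its first intron (chrII:2875202-2875831, + strand) was the single intron with the most spliced reads, 10901 in experiment 2 and 6814 in experiment 1. That was 2.30% of all spliced reads in each library, beside 21 and 8 unspliced reads. Per listed junction Y110A2AL.1 had 69.8 CPM in experiment 2 and 190.4 CPM in experiment 1, above E01G4.5 with 37.8 and 71.1 CPM. Levels of different genes depend on how many of their junctions are listed.

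The third gene on the mean, Y71A12B.10 on chromosome I, led both kinds of read. It had 11633 spliced and 935 unspliced reads in experiment 2, against 6351 spliced and 816 unspliced in experiment 1. CD4.8 followed with 9195 spliced reads in experiment 2 and 4924 in experiment 1. Its intron 2 (chrV:5600970-5601016, - strand) had 7096 spliced reads in experiment 2 and 3472 in experiment 1 and no unspliced read in either, which allows an unspliced share of up to 0.0520% in experiment 2 and 0.106% in experiment 1 (upper exact 95% limits). hmg-11, named for a high mobility group protein, has 1 intron (chrII:4673171-4673272, + strand), which had 5578 spliced reads in experiment 2 and 3459 in experiment 1. The 2 libraries gave hmg-11 nearly the same share of spliced reads, 1.18% in experiment 2 and 1.17% in experiment 1.

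The other 7 of the 12 leading genes each held between 0.887% and 1.16% of spliced reads on average. They were C24H10.4, rnh-1.3 (of the ribonuclease H family), the annotated pseudogene Y48G1BM.8, K08E5.1, the annotated pseudogene Y37H9A.2, B0284.3 and bath-45, a member of the MATH-BTB family. Their unspliced reads ranged from 3 in experiment 2 and 1 in experiment 1 for K08E5.1 to 160 and 159 for Y48G1BM.8, apart from rnh-1.3. That gene had 214 unspliced reads in experiment 2 against 24 in experiment 1, and 175 of the 214 were at the donor end of its first intron, where experiment 1 had 1.

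**Figure D2:**
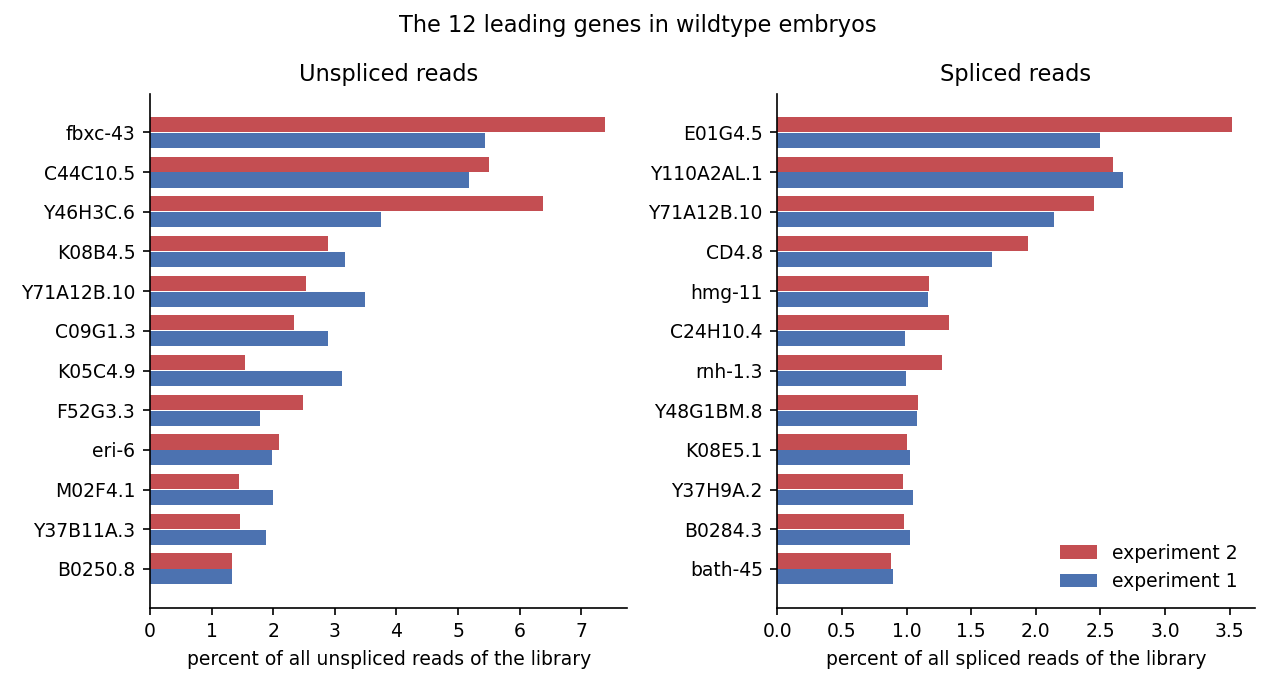
Percent of all unspliced reads (left) and of all spliced reads (right) of a library held by the 12 leading genes, ranked by the mean of the 2 wildtype libraries; upper bars are experiment 2 and lower bars experiment 1. fbxc-43 leads the unspliced reads with 7.38% in experiment 2 and 5.44% in experiment 1, and E01G4.5 leads the mean of the spliced reads with 3.52% in experiment 2 and 2.49% in experiment 1, where Y110A2AL.1 is above it at 2.67%.

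The leading unspliced reads came mostly from single introns with almost no spliced read. fbxc-43, an F-box gene, had 2722 unspliced reads in experiment 2 and 1271 in experiment 1 (6.41% ± 1.37 of unspliced reads, SD, n = 2), all at 1 listed intron (chrII:4235376-4235469, - strand). The donor end had 1565 of these in experiment 2 and 907 in experiment 1, and the acceptor end 1157 and 364. Only 6 spliced reads in experiment 2 and 1 in experiment 1 were listed for it. C44C10.5 had 2017 unspliced reads in experiment 2 and 1198 in experiment 1 at 1 intron (chrX:11691291-11691407, + strand), with no spliced read in either library. The same gene had 1549 spliced reads in experiment 2 and 1332 in experiment 1 at its other 4 listed introns, which held 11 and 10 unspliced reads.

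Y46H3C.6, an annotated pseudogene, showed the same arrangement. One listed intron (chrV:1698523-1698727, - strand) had 2350 unspliced reads in experiment 2 and 872 in experiment 1, with 0 and 1 spliced reads. Its other 3 introns had 1887 spliced reads in experiment 2 and 802 in experiment 1, with 3 unspliced reads in each. The last bases of the listed intron are CT, not AG, as the sequence above shows. K08B4.5, an annotated pseudogene on chromosome IV, had 1064 unspliced reads in experiment 2 and 739 in experiment 1 over 4 listed introns and no spliced read. Y37B11A.3 likewise had 538 unspliced reads in experiment 2 and 440 in experiment 1 at 1 listed intron end, and no spliced read.

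Most of the remaining leading genes had 1 dominant unspliced intron. C09G1.3, an annotated pseudogene, had 863 unspliced reads in experiment 2 and 674 in experiment 1, of which 855 and 673 were at the donor end (chrX:15987475-15987543, + strand). K05C4.9 had 571 unspliced reads in experiment 2 and 728 in experiment 1, against 20 and 32 spliced reads. F52G3.3, an annotated pseudogene, had 915 in experiment 2 and 418 in experiment 1, with 41 and 55 spliced reads. M02F4.1 and B0250.8 had both kinds of read, with 29.6% and 5.22% of junction reads unspliced in experiment 2 and 32.8% and 6.12% in experiment 1. eri-6, which with eri-7 encodes a helicase that works with ERGO-1, had 770 unspliced reads in experiment 2 and 463 in experiment 1, 714 and 423 of them at the donor end of 1 intron. At that intron 591 spliced reads in experiment 2 and 223 in experiment 1 were listed as well.

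A small set of introns outside the present annotation held a large part of the unspliced reads. In this set, 168 of 7288 listed introns (2.31%) had at least 1 listed end that matches no intron boundary in the WBcel235 annotation. They held 48.6% of unspliced reads in experiment 2 and 46.7% in experiment 1 (47.6% ± 1.36, SD, n = 2), beside 0.852% and 0.803% of spliced reads. No spliced wildtype read was listed at 77 of them. Where such a position is not an intron in the embryo, a read across it is not a read of an unspliced intron, and the listed values cannot tell these cases apart. With introns at annotated boundaries alone, unspliced reads were 2.47% of junction reads in experiment 2 and 2.57% in experiment 1. On that count 49 genes in experiment 2 and 43 in experiment 1 held 50% of unspliced reads, and the 10 leading genes held 23.8% and 29.0%.

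Pseudogenes and other classes of intron also differed between the 2 kinds of read. The 244 listed introns of annotated pseudogenes (3.35% of introns) held 24.7% of unspliced reads in experiment 2 and 24.1% in experiment 1, beside 6.71% and 6.64% of spliced reads. Introns that begin and end with neither GT-AG nor GC-AG numbered 53 and held 9.35% of unspliced reads in experiment 2 and 6.42% in experiment 1, beside 0.378% and 0.398% of spliced reads. Without the 1 intron of Y46H3C.6 that led this class, it held 2.98% of unspliced reads in experiment 2 and 2.69% in experiment 1. Introns of up to 60 bases were 49.2% of listed introns and held 27.2% of unspliced reads in experiment 2 and 28.7% in experiment 1. Their share of spliced reads was 53.3% in experiment 2 and 52.1% in experiment 1. The last 6 intron bases were searched for TTTCAG on the gene's strand, the usual form of the worm acceptor. Introns with it were 49.96% of those listed and held 31.1% of unspliced reads in experiment 2 and 32.8% in experiment 1, beside 53.7% and 54.5% of spliced reads.

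**Figure D3:**
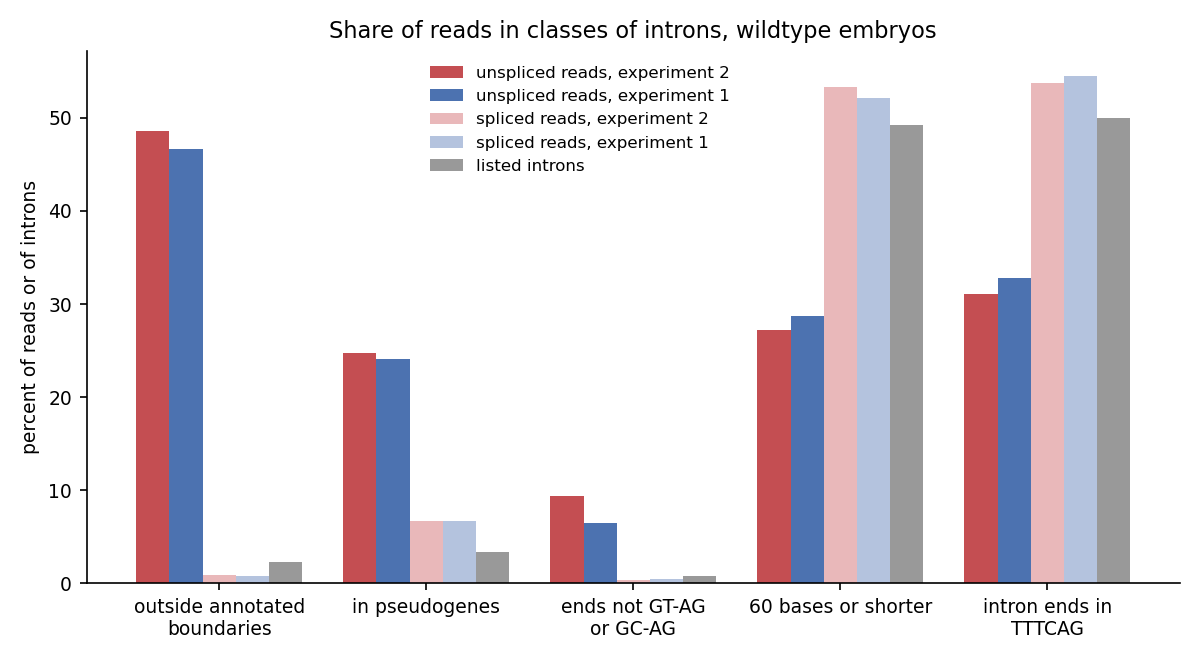
Percent of unspliced reads, of spliced reads and of listed introns (y axis) in 5 classes of intron that overlap each other; in each set of bars experiment 2 stands left of experiment 1, and grey bars count introns. The 168 introns outside annotated boundaries stand out with 48.6% and 46.7% of unspliced reads, under 1% of spliced reads and 2.31% of introns.

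Most single introns were either nearly fully spliced or nearly fully unspliced in the small RNA. Of 969 introns with at least 50 reads in each wildtype library, 909 were under 20% unspliced on average, 16 were between 20 and 80%, and 44 were above 80%. No unspliced read was listed at 389 of them in experiment 2 and 470 in experiment 1. The 44 introns above 80% lay in 39 genes, 28 of them had no spliced wildtype read, 17 were in pseudogenes, and 12 had all listed ends at annotated boundaries. TTTCAG ended 20.5% of these 44 introns, 37.5% of the 16 in between and 52.8% of the 909. A donor beginning GTAAG or GTGAG stood at 36.4% of the 44, 4 of the 16 and 52.3% of the 909. These shares describe the listed introns and were not tested. The 6 introns with the highest unspliced share and the most reads, in C44C10.5, Y37B11A.3, K08B4.5, M02F4.1, C18H2.1 and K09H11.11, had no spliced read in either library, and none of them is in the annotation.

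The 12 annotated introns above 80% were looked at after the values had been seen. Among them, 6 had no spliced wildtype read. They were in C23G10.5, with 117 unspliced reads in experiment 2 and 99 in experiment 1, the pseudogene F49F1.8, Y116A8C.40, the ABC transporter gene mrp-3, the olfactory guanylyl cyclase gene odr-1 and the chemoreceptor gene srh-34. Each of these 6 had between 51 and 183 unspliced reads in a library, against 531 in experiment 2 and 688 in experiment 1 at the first intron of K05C4.9.

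The 16 introns in between were all annotated, and none was in a pseudogene. At intron 3 of anmt-1 (chrIII:8685517-8685835, + strand), an amine N-methyltransferase gene, the unspliced share was 69.2% in experiment 2 (95% exact interval 63.4 to 74.5%) and 74.7% in experiment 1 (67.0 to 81.3%). All of its unspliced reads, 386 in experiment 2 and 230 in experiment 1, were at the acceptor end. An intron of W03H9.2 was 65.6% unspliced in experiment 2 and 55.2% in experiment 1. An intron of unc-10, which encodes a protein of presynaptic active zones, was 59.4% unspliced in experiment 2 and 45.9% in experiment 1. Another intron of unc-10 had 694 spliced reads in experiment 2 and 625 in experiment 1 and no unspliced read. It was among the 6 introns with the lowest unspliced share and the most reads, with intron 2 of CD4.8 and introns of parn-1, dlk-1, Y54G2A.19 and F43E2.1. parn-1 encodes a ribonuclease that trims piRNAs, and its intron had 1936 spliced reads in experiment 2 and 799 in experiment 1.

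**Figure D4:**
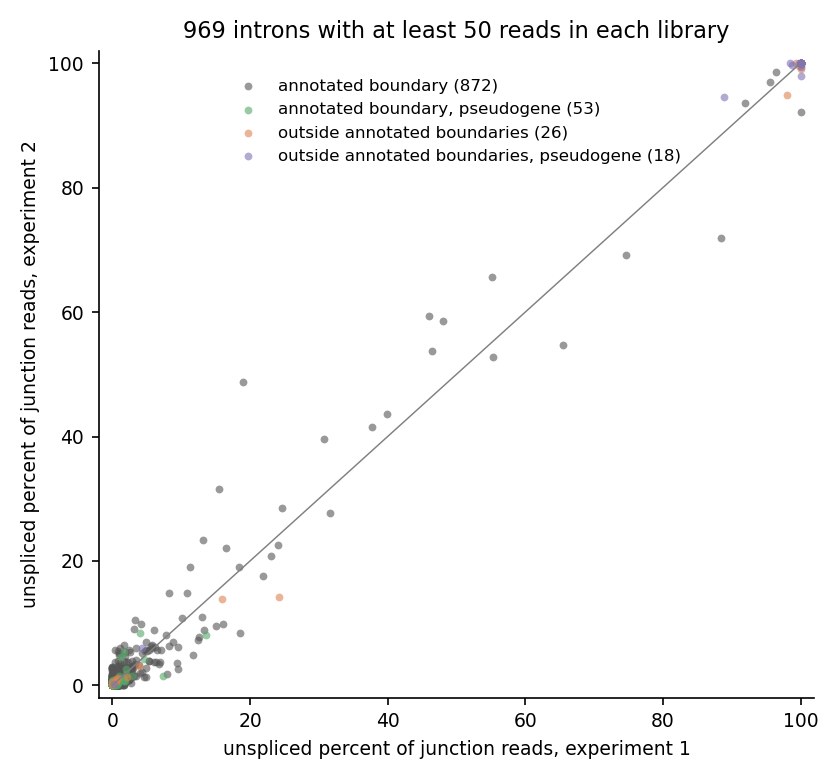
Unspliced percent of junction reads of each of 969 introns in experiment 2 (y axis) and experiment 1 (x axis), coloured by annotation and pseudogene status, with the line of equal values. Points gather near 0 and near 100 in both libraries, with 16 introns averaging between 20 and 80%.

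Unspliced shares at single introns were close in the experiments where they were near 0 or 100%, and less so in between. For 938 of the 969 introns (96.8%) the shares were within 5 percentage points of each other, and 9 differed by more than 10 points. Since most introns lie near either end of the scale, this closeness is largely fixed by their low or high shares. Of the 16 introns between 20 and 80%, 6 differed by more than 10 points. The largest rise was 29.7 points at an intron of the tropomyosin gene lev-11, which was 48.8% unspliced in experiment 2 and 19.05% in experiment 1. The largest fall was -16.6 points at an intron of C24A1.3, with 71.9% in experiment 2 and 88.5% in experiment 1. Over the 969 introns Pearson r was 0.996 and Spearman rho 0.732, as a description, since many introns share a value of 0 and the few high ones set r.

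Acceptor ends had more unspliced reads than donor ends in both experiments, by a ratio of read totals that differed between them. Over 6820 introns with both ends listed, donor ends had 10931 unspliced reads and acceptor ends 15341 in experiment 2, a donor over acceptor ratio of 0.713. In experiment 1 donor ends had 7783 and acceptor ends 8173, a ratio of 0.952. Counted by intron, the acceptor end had more reads at 1195 and the donor end at 620 in experiment 2. The same counts were 854 and 486 in experiment 1, so the read totals differed more than the counts of introns. Without the 50 introns with the most unspliced reads, and at annotated boundaries alone, the ratio was 0.675 in experiment 2 and 0.858 in experiment 1. Of 48 introns with at least 50 unspliced reads in each library, 8 had over 90% of them at the same end in both libraries, 5 at the donor and 3 at the acceptor. The end with more reads differed between the libraries at 3 of the 48. Wildtype has 1 library in each experiment. In the rnp-2(mg582) libraries the ratio over the same 6820 introns was 0.731 in experiment 2 and 0.936 in experiment 1, which is the same direction, and no test was made.

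Genes differed in their share of reads between the experiments, some of them by 2-fold or more. Of 1663 genes with at least 50 spliced wildtype reads, 91 (5.47%) had a share of spliced reads 2-fold or more higher in experiment 2 than in experiment 1, and 86 (5.17%) a share 2-fold or more lower. cdh-1, a cadherin gene, had 128 spliced reads in experiment 2 against 4 in experiment 1, and T05G5.4 had 548 against 25. tag-196 had 21 spliced reads in experiment 2 against 75 in experiment 1. These 3 were chosen after their values were seen. Some of these differences were also seen in the other genotype. Of the 42 genes 2-fold or more higher that had at least 50 reads in the rnp-2(mg582) pair as well, 38 had a ratio above 1 there, against 49.6% of all 937 such genes. Of 31 genes 2-fold or more lower, 26 had a ratio below 1 there, against 50.4% of all. Fewer were 2-fold or more apart there as well, 15 of the 42 higher and 9 of the 31 lower genes. Over all 937 genes, 42 were 2-fold or more higher there and 50 were 2-fold or more lower.

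The test of the experiments took wildtype and rnp-2(mg582) together, with genotype as a term, since each experiment had 1 wildtype library. Its error rests on how far the 2 genotypes disagreed on the difference, with spread pooled over genes, and not on replicates within an experiment. The test used limma on log2(CPM + 0.5) with CPM scaled by TMM factors from spliced reads. Changes are thus relative to the bulk of spliced junction reads, and those of low genes are understated. Of 2463 genes tested for spliced reads, 119 (4.83%) passed an adjusted p of 0.05, 65 (2.64%) higher in experiment 2 and 54 (2.19%) lower. By library size alone 2432 of 3059 genes passed, 3 higher and 2429 lower, and the median over genes was a log2 difference of -0.92, against 0.03 with TMM. Which experiment is higher for a gene thus depends on the scaling. Without the genotype term no gene passed (59 at an unadjusted p under 0.05). edgeR on the recovered reads called 134 genes, and DESeq2 called 6.

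None of the 12 leading genes passed in spliced reads by limma, edgeR or DESeq2, beside 4.83% of all genes tested by limma, and 1 of the 12 had an unadjusted p under 0.05. Their median log2 difference was 0.17, against 0.03 over all genes. For E01G4.5 the scaled levels were 242.1 and 53.2 CPM in the wildtype and rnp-2(mg582) libraries of experiment 2, against 167.5 and 73.7 CPM in those of experiment 1, a log2 difference of 0.03 ± 0.20 (SE). The genotypes thus moved opposite ways between the experiments. Such values do not show that the 2 experiments gave E01G4.5 the same level.

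Most calls were of genes of lower level, but so were most genes tested. The counts thus do not show that genes of lower level were called more often. A wildtype mean of at least 5 scaled CPM was reached by 14 of the 65 higher and 11 of the 54 lower genes. The largest rise among these was in dyf-3, a gene of sensory cilia. It stood at 6.90 CPM in wildtype and 2.16 CPM in rnp-2(mg582) in experiment 2, against 3.67 and 0.284 CPM in experiment 1, a log2 difference of 1.296 ± 0.23 (SE, adjusted p = 0.00328 by limma). Every experiment 2 library was above the experiment 1 library of its genotype. Without the rnp-2(mg582) library of experiment 1 the log2 difference was 0.0935, without the wildtype library of experiment 2 it was 0.55, and without the wildtype library of experiment 1 it was 2.31, in fits with no genotype term. DESeq2 did not call dyf-3 (adjusted p = 0.0527 by DESeq2). Y102A5C.36 (18.7 CPM in wildtype of experiment 2 against 8.12 CPM in experiment 1), the globin gene glb-14 (17.8 against 8.39 CPM), madf-9, F53G2.2, the pseudogene Y73F8A.33, F55C9.5 and the Axin homolog pry-1 rose with log2 differences between 0.82 and 1.14. The rise of F55C9.5, an ERGO-1 target, lay mostly in the mutant pair, at 136.9 CPM in experiment 2 against 49.4 CPM in experiment 1, beside 11.7 against 9.98 CPM in wildtype. Its log2 difference was -0.28 without the wildtype library of experiment 1 and -0.91 without the rnp-2(mg582) library of experiment 2, in fits that drop the genotype term.

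The largest falls were smaller. K09H9.7 had 5.44 CPM in wildtype and 3.74 CPM in rnp-2(mg582) in experiment 2, against 9.03 and 8.47 CPM in experiment 1, a log2 difference of -0.88 ± 0.20 (SE, adjusted p = 0.0137 by limma). F17C11.1, C34F6.7, ZK1073.1, the F-box gene fbxa-150, B0041.11, faah-5 (of the fatty acid amide hydrolase family) and F02C12.3 fell as well, with log2 differences between -0.87 and -0.74. F02C12.3 had the highest level of these 8, 21.9 CPM in wildtype of experiment 2 against 35.4 CPM in experiment 1. fbxa-150 and B0041.11 changed sign in fits that left out a library and the genotype term. Their log2 differences were 0.03 and 0.75 without the wildtype library of experiment 1. Without the rnp-2(mg582) library of experiment 2 they were 0.03 and 0.99. Such fits mix genotype with experiment, so these signs do not bear on the experiments alone. Within genotypes both genes fell, fbxa-150 by log2 -0.77 in wildtype and -0.76 in rnp-2(mg582), and B0041.11 by -0.62 and -0.90.

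**Figure D5:**
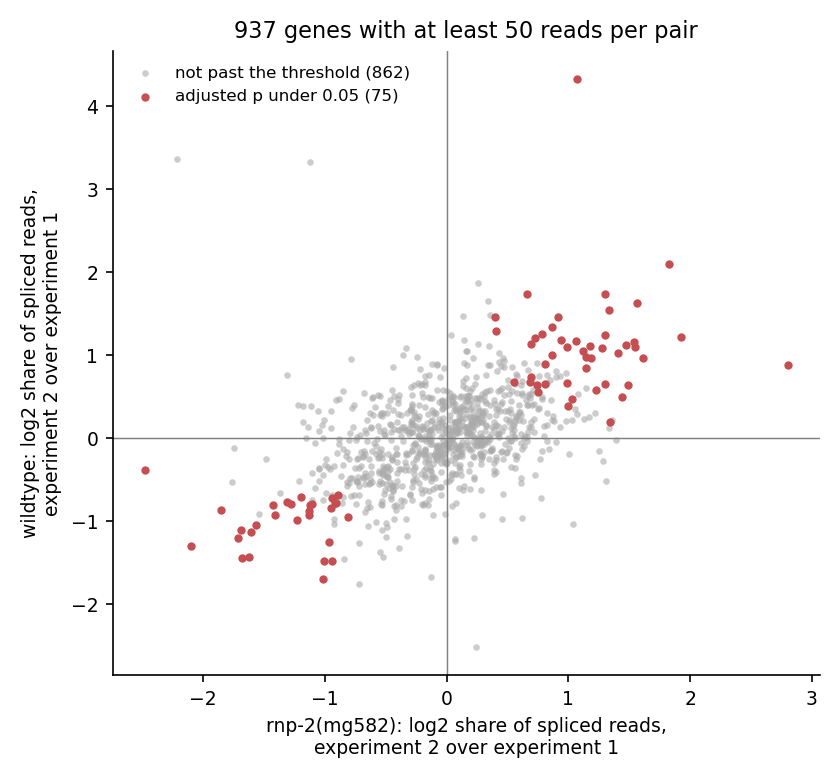
Spliced reads of each gene as log2 of its share of spliced reads in experiment 2 over experiment 1, in wildtype (y axis) and in rnp-2(mg582) (x axis), for 937 genes with enough reads in both pairs. Coloured points are the 75 genes past the threshold of the test, and all 75 have the same sign in both genotypes, beside 628 of all 937. The test asks for a common difference in both genotypes, so this agreement of the called genes is part of the rule that called them.

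In unspliced reads 28 of 297 genes (9.43%) passed, 15 higher (5.05%) and 13 lower (4.38%) in experiment 2. These calls are limma's, and edgeR called 0 of the 297 (52 at an unadjusted p under 0.05) and DESeq2 called 4. Among the 12 genes that led the unspliced reads 3 were higher and 3 lower. Y46H3C.6 had 34.1 CPM in wildtype and 30.6 CPM in rnp-2(mg582) in experiment 2, against 19.8 and 15.5 CPM in experiment 1, a log2 difference of 0.87 ± 0.07 (SE, adjusted p = 3.15e-05 by limma). fbxc-43 had 39.5 CPM in wildtype and 42.4 CPM in rnp-2(mg582) in experiment 2, against 28.8 and 28.0 CPM in experiment 1 (log2 0.52 ± 0.05, SE, adjusted p = 0.000133 by limma). F52G3.3 was the third higher gene, and the F-box gene fbxb-37, outside the 12, was higher too. The rise of fbxb-37 lay mostly in the mutant pair, at 62.6 CPM in experiment 2 against 29.1 CPM in experiment 1. In wildtype fbxb-37 had 5.87 against 5.16 CPM. Of the 4 genes called lower at a wildtype mean of at least 5 scaled CPM, K05C4.9 had the largest fall, with 8.28 CPM in wildtype of experiment 2 against 16.5 CPM in experiment 1 (log2 -0.84, adjusted p = 0.00169 by limma). C01A2.1, Y71A12B.10 and C09G1.3 fell by less, with log2 differences of -0.81, -0.49 and -0.38.

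Of the 12 genes that led the spliced reads, 9 could be tested in unspliced reads. By limma rnh-1.3 and Y110A2AL.1 were higher and Y71A12B.10 lower in experiment 2, beside 9.43% of all genes tested, and edgeR called 0 of the 9 and DESeq2 called 1. rnh-1.3 had 3.103 CPM in wildtype and 1.17 CPM in rnp-2(mg582) in experiment 2, against 0.543 and 0.0709 CPM in experiment 1, a log2 difference of 1.67 ± 0.22 (SE, adjusted p = 0.000856 by limma).

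The ratio of unspliced over spliced reads passed in 43 of 297 genes (14.5%), 26 higher (8.75%) and 17 lower (5.72%) in experiment 2. The pseudogene K10F12.6 had a ratio of 0.914 in wildtype and 1.19 in rnp-2(mg582) in experiment 2, against 0.448 and 0.506 in experiment 1 (log2 1.05 ± 0.20, SE, adjusted p = 0.000229 by limma). Its 487 unspliced and 533 spliced wildtype reads in experiment 2 stood against 243 and 543 in experiment 1. F52G3.3, fbxb-37, C09G1.3 and C44C10.5 were higher as well, with log2 differences between 0.57 and 0.997. Spliced reads of fbxb-37 were near the floor, 7 in experiment 2 and 6 in experiment 1 in wildtype, and 4 and 5 in rnp-2(mg582). Its ratio difference (log2 0.71) was thus close to that of its unspliced reads (0.63). F52G3.3 had 5 and 6 spliced reads in rnp-2(mg582), in the same order. Y71A12B.10 was the gene of this level whose ratio fell, with 0.0804 in wildtype and 0.0506 in rnp-2(mg582) in experiment 2, against 0.128 and 0.0984 in experiment 1. K05C4.9, F37H8.2 and M02F4.1 did not pass, with log2 differences of -0.51, -0.39 and -0.40.

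Genes of the RNA interference pathway were themselves among those with small RNA. Of 22 named ERGO-1 targets 16 were listed, and 14 had spliced reads in both libraries. They held 4.196% of spliced reads in experiment 2 and 3.38% in experiment 1, most of it at E01G4.5, with F55C9.5 (808 and 441 reads) and F55C9.3 (775 and 659 reads) next. Their median share was 0.0300% of spliced reads, against 0.00540% over all listed genes, and this list holds genes known for such small RNAs. Of 13 tested, F55C9.5 alone passed in spliced reads between the experiments by limma, beside 4.83% of all genes. edgeR called 1 of the 13 and DESeq2 called 0, and 3 had an unadjusted p under 0.05 by limma. Of 70 named RNA interference factors 40 were listed and held 1.46% of spliced reads in experiment 2 and 1.503% in experiment 1. eri-6 led them with 1495 and 1106 reads, then zfp-1, the homolog of the human AF10 gene, with 1468 and 1074, and rde-11, a RING finger gene required for RNA interference, with 854 and 416. None of the 32 tested passed in spliced reads by limma, edgeR or DESeq2, and 0 had an unadjusted p under 0.05, beside 4.83% of all genes called by limma.

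F-box and MATH genes, of large families in which similar members may share reads, numbered 95. They held 10.7% of unspliced reads in experiment 2 and 9.06% in experiment 1, beside 3.71% and 3.93% of spliced reads, and were 2.56% of listed genes. fbxc-43 alone had 2722 of their 3933 unspliced reads in experiment 2 and 1271 of 2116 in experiment 1, and the other 94 genes held 3.28% and 3.62% of unspliced reads, in the same order. bath-45, fbxa-149 (2169 spliced reads in experiment 2 and 1169 in experiment 1) and bath-20 (880 and 842) led the spliced reads of these families. Of 62 tested, fbxa-120 and math-44 rose and fbxa-150 fell in spliced reads by limma, a share near the 4.83% of all genes. DESeq2 called 0 of the 62, and edgeR called 6, beside 134 of all 2463 genes. An unadjusted p under 0.05 by limma was seen in 22 of the 62, beside 478 of the 2463.

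The other lists held little of either kind of read, and each was a small part of the listed genes. Splicing factors were 0.646% of listed genes, germline and maternal genes 0.861%, translation factors 0.484% and ribosomal protein genes 0.565%. Heat shock and stress genes were 0.538%, histone genes 0.188% and collagen and cuticle genes 0.673%. Among these lists histone genes alone held a larger share of spliced reads than of listed genes. The 24 listed splicing factors held 0.175% of spliced reads in experiment 2 and 0.1603% in experiment 1, with 5 and 0 unspliced reads in all. rsp-4 led with 313 spliced reads in experiment 2 and 168 in experiment 1, then snrp-200 (135 and 84) and rsp-6 (73 and 40). None of 9 tested passed by any of the 3 tools (0 at an unadjusted p under 0.05 by limma), beside 4.83% of all genes called by limma. The 32 listed germline and maternal genes held 0.409% in experiment 2 and 0.400% in experiment 1. The eggshell gene cbd-1 (317 and 161 reads), the P granule gene pgl-1 (192 and 61) and the yolk receptor gene rme-2 (135 and 91) led them. Of 24 germline and maternal genes tested none passed by any of the 3 tools (2 at an unadjusted p under 0.05 by limma), beside the same 4.83%. Translation factors held 0.271% of spliced reads in experiment 2 and 0.243% in experiment 1. On top were iff-2, an eIF5A gene (376 and 158 reads), pab-1 (228 and 60) and pab-2 (144 and 125). By limma pab-1 rose among 13 tested, beside 2.64% of all genes called higher. edgeR called 1 of the 13 and DESeq2 called 0. Ribosomal protein genes, with rps-4 (109 and 44), rpl-23 (91 and 46) and rps-24 (51 and 67) on top, held 0.154% in experiment 2 and 0.166% in experiment 1.

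Heat shock and stress genes held 0.295% of spliced reads in experiment 2 and 0.341% in experiment 1, led by sod-4 (345 and 284 reads), dnj-24 (309 and 179) and hsp-1 (158 and 132). Histone genes held 0.223% and 0.244%, in the same order, with the linker histone gene hil-8 at 772 and 566 reads, hcp-3 at 88 and 55, and hil-3 at 83 and 45. Collagen and cuticle genes held 0.209% in experiment 2 and 0.172% in experiment 1, led by col-111 (307 and 86), col-71 (231 and 133) and dpy-31 (117 and 139). col-111 and col-84 rose among 14 collagen and cuticle genes tested by limma, beside 2.64% of all genes called higher. DESeq2 called 0 of the 14, and edgeR called 2, beside 134 of all 2463 genes. An unadjusted p under 0.05 by limma was seen in 6 of the 14, beside 478 of the 2463. By limma no ribosomal protein gene (of 15 tested, 1 at an unadjusted p under 0.05), heat shock gene (of 17, 2 so) or histone gene (of 6, 1 so) passed, beside 4.83% of all genes tested. edgeR called 1 histone gene and none of the others.

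Small RNA against a gene is not its messenger RNA level, so the markers of cell types describe only which genes small RNA was listed for. Of 6 markers of oocyte and embryo 5 were listed, all with spliced reads in both libraries, with cbd-1 and rme-2 above mex-5 (22 reads in experiment 2 and 20 in experiment 1), pie-1 (21 and 20) and meg-1 (5 and 3). None of the 6 intestine markers was listed. For hypodermis bli-1 was listed with no wildtype read, for muscle lev-11 (37 and 75 spliced reads) and unc-60 (59 and 55), and for sperm spe-41 (162 and 140) and spe-47 of 6 markers. Of 5 neuron markers 4 were listed, with unc-10 at 2089 spliced reads in experiment 2 and 1768 in experiment 1. In the test of the experiments egl-21, at 43 and 1 spliced reads, was called higher by limma as 1 of 3 tested. Over all genes tested limma called 2.64% higher. edgeR called 1 of the 3 and DESeq2 called 0. In whole embryos, fewer cells of a type and less RNA per cell cannot be told apart.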

How the data were processed

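The authors deposited 1 table of CPM values per junction and library, with 14533 lines that hold values. Another 24 lines without values were not used. The submitters' processing notes name STAR and SAMtools. Build, use of strand and treatment of reads with several places were not given in the sources used here, so overlapping genes and near-identical copies cannot be told apart. Of the lines, 98.1% lay at an intron boundary of WBcel235 annotation release 115. Listed gene names were matched to the annotation by name (3143), older name (376) or position (166), and 32 were unmatched.

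In the libraries used, 100.0% of CPM values came out as whole reads within 1e-06 reads. Introns of a gene within 2000 bases whose spliced reads (at least 20) differed by up to 5% were counted once, 619 merged into 242. Low genes were removed with filterByExpr of edgeR at a minimum count of 10 and a total of 15, and the rest tested in limma 3.58.1 with edgeR 4.0.16 and R 4.3.3, adding 0.5 CPM before log2. Adjusted p-values are Benjamini-Hochberg over all genes tested, with the threshold at 0.05. On the recovered reads edgeR's quasi-likelihood test called 134 of 2463 genes in spliced reads. The other alternatives were DESeq2 1.42.0 and those in the closing section. Shares and intervals were computed in Python 3.11.15 with SciPy 1.17.1.

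Named were the 12 leading genes and 8 leading introns of each kind, the 6 introns at each extreme of unspliced share, the 8 largest rises and falls past the threshold at a wildtype mean of at least 5 scaled CPM (at fewer, up to 4 a direction by p), and the 3 leading genes of each list. Members and lists were chosen with earlier results of these data known. Other names were chosen after their values were seen. Counting limits of 3 reads cover counting error only.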

Additional observations from a re-analysis of the deposited data

How the results depend on the processing

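No paired analysis was possible with the replicate number as the block, because the replicate number is the experiment, the factor compared. The main test instead compared the experiments within each genotype, through its genotype term. The share of spliced reads in the 10 leading genes moved by less than 1 SD under each alternative. The genes holding 50% of spliced reads were 88.5 with lines of at least 0.5 CPM in a wildtype column and 109.5 with each intron counted by itself, against 105 ± 2.83 (SD, n = 2). The unspliced values moved by less than 1 SD under thinning or with each intron counted by itself. With lines of at least 0.5 CPM in a wildtype column the 10 leading genes held 35.8% of unspliced reads and introns outside annotated boundaries 50.02%. With annotated boundaries alone, an alternative chosen after seeing the data (as were those of the share outside boundaries), the 10 leading genes held 26.4%, 46 genes held 50%, and the unspliced percent was 2.52. Introns outside boundaries are left out there by construction. Leaving out a library gives the other library's values.

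Calls between the experiments depended on the setting. Spliced calls were 2432 by library size alone, 47 with a pseudocount of 0.1, 181 with no filter, 41 at a mean of at least 5 CPM, 6 by DESeq2, 0 with experiment as the only term by limma, and 0 to 0 without each library. Unspliced calls were 259 by library size, 44 with median-of-ratios factors, 6 at a mean of at least 5 CPM, 0 by edgeR (52 at an unadjusted p under 0.05), 4 by DESeq2, 0 with experiment as the only term, and 0 to 1 without each library. Ratio calls were 159 by library size, 7 at a mean of at least 5 CPM, 21 by DESeq2, 0 with experiment as the only term, and 0 to 1 without each library. In the fits without a library genotype was dropped, and a lone library was assumed to vary like the others. The cause of the other differences was not tested.

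Of 30 calls for named genes, 30 passed in the same direction under median-of-ratios factors, 20 under edgeR, 9 under DESeq2 and 0 with experiment as the only term. By library size alone 14 of 33 results for named genes, called or not, changed sign. Spliced log2 differences were then -0.16 for dyf-3, -0.78 for Y102A5C.36, -0.81 for glb-14, -0.91 for madf-9, -0.88 for F53G2.2, -1.004 for Y73F8A.33, -1.16 for F55C9.5 and -0.99 for pry-1. Unspliced ones were -1.12 for Y46H3C.6, -1.34 for fbxb-37, -1.304 for F52G3.3 and -1.49 for fbxc-43, and ratios -0.0917 for F52G3.3 and -0.80 for fbxb-37. Without the wildtype library of experiment 1 or the rnp-2(mg582) library of experiment 2, spliced log2 differences were -0.28 and -0.91 for F55C9.5, 0.0296 and 0.0284 for fbxa-150, and 0.75 and 0.99 for B0041.11. For fbxb-37 they were -0.55 and -1.03 in unspliced reads and -0.45 and -0.86 in the ratio. The ratio of C09G1.3 was -0.0454 without the rnp-2(mg582) library of experiment 1. With 1 wildtype library an experiment, no spread of wildtype within an experiment was measured.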

Other observations

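The chromosomes did not carry the 2 kinds of read in proportion to their listed introns, and a few genes held much of the excess. The X chromosome had 8.89% of listed introns and held 20.1% of unspliced reads in experiment 2 and 21.05% in experiment 1, beside 11.9% and 13.2% of spliced reads. Without the leading intron of C44C10.5 the X chromosome held 14.7% of unspliced reads in experiment 2 and 15.9% in experiment 1. C44C10.5, C09G1.3, F52G3.3 and M02F4.1, among the leading unspliced genes, lie on it. They held 5.50%, 2.34%, 2.48% and 1.44% of all unspliced reads in experiment 2. In experiment 1 they held 5.17%, 2.89%, 1.79% and 1.99%. The shares thus do not show an excess over the whole X chromosome. Chromosome II had 18.9% of introns and 24.997% of spliced reads in experiment 2 and 24.7% in experiment 1. Among its genes E01G4.5, Y110A2AL.1, hmg-11 and bath-45 held 3.52%, 2.60%, 1.18% and 0.881% of all spliced reads in experiment 2. In experiment 1 these 4 held 2.49%, 2.67%, 1.17% and 0.893%. These shares were not tested.

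The last introns of transcripts were 20.7% of listed introns and held 25.8% of spliced reads in experiment 2 and 26.1% in experiment 1, beside 9.81% and 9.58% of unspliced reads. Another 211 introns (2.90%) match no annotated intron exactly and have no order in a transcript. They held 49.8% of unspliced reads in experiment 2 and 48.4% in experiment 1, which lowers the unspliced share of all ordered classes. These shares thus do not show that last introns were short of unspliced reads. Single introns of 1-intron genes, hmg-11 among them, were 2.43% of introns and held 6.05% of spliced reads in experiment 2 and 5.87% in experiment 1. Introns that overlap a gene on the opposite strand numbered 478 and held 5.36% of unspliced reads in experiment 2 and 5.16% in experiment 1, beside 6.69% and 6.63% of spliced reads.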
